A study of Mus musculus with 10 samples.

Results

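The 9 genes described here serve the fusion of myoblasts and the contacts that precede it: Mymk, Mymx, Cdh15, Cdh2, Ncam1, Itga7, Cav3, Dysf and Myof. They were found by name, as every non-control probe whose gene name in the scanner files was one of the 9, with Mymk also written Tmem8c and Mymx also written Gm7325. This gave 12 probes for 9 of the 34607 gene names on the array.

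The cells were C2C12, a line of mouse myoblasts that can be made to form myotubes in culture. One group received a miR-27a-3p mimic, a synthetic RNA that supplies the mature microRNA, and the other a scrambled sequence. Both were delivered with a cationic lipid at 150 nM to cells kept in a growth medium with fetal bovine serum, and results were read 72 h later. By the submitters' estimate about 60% of cells took up the RNA, so each dish also held cells that it had not reached.

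Total RNA was hybridised in 1 colour (Cy3) to Agilent whole-genome arrays, 6 samples after the mimic and 4 after the scrambled sequence. The 10 files came from 5 positions of 1 slide, each scanned 2 times. Scans of the same position had 21 to 75 non-uniform spots in common, against 0 in each of the other 40 pairs of files. Such scans were averaged to 1 array, which left 3 mimic arrays and 2 scrambled arrays, although the labels describe every replicate as a transfection of its own. The share of spots well above background was 27.04% to 35.29% in a file, and no spot was saturated. The p-values measure only how far these 5 arrays scatter, part of which can be technical.

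Levels are given as log2 of the processed signal relative to the 75th percentile of the same file, so a level of 0 lies at that percentile. A difference is mimic minus scrambled on the log2 scale, with its standard error from limma. A gene was called where limma's p, adjusted by the Benjamini-Hochberg method over 13138 genes and transcripts, was under 0.05. Levels of different genes were not compared as amounts of RNA, and were set beside each other only to mark bright or near-background probes. Summed levels of a marker list were compared only between arrays, and bright probes weigh most in them. For the probes of Ncam1, the gap between probes within an array is given only to compare that gap between the groups.

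Skeletal muscle fibres form when myoblasts leave the cell cycle, align, adhere and merge their membranes. Cadherins, the neural cell adhesion molecule and integrins hold the cells to one another and to the matrix, and their contacts come before fusion. Myomaker and myomerger, the products of Mymk and Mymx, act on the membrane itself, myomaker when the lipid layers first mix and myomerger when the pore opens. Caveolin-3 and the ferlins dysferlin and myoferlin shape, traffic and repair the muscle cell membrane. Of these genes, Mymk, Mymx and Cav3 are switched on as myoblasts differentiate, whereas Myof is known from myoblasts about to fuse.

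The mature microRNA is shown because its seed, bases 2 to 8 from the 5′ end, sets which messages it pairs with. RefSeq places it on chromosome 8 of GRCm38.p6, at chr8:84208727-84208747 on the plus strand, and the seed is in capitals. The sequence of the purchased mimic itself was not used here.
miR-27a-3p: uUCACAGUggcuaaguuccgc

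The letters that pair with that seed, ACTGTGA, occurred in 0 of the 12 member probes and in 455 of all 55681 probes (0.817%). Probes cover 60 bases of a transcript, so this says only that the stretches measured here did not hold them. The untranslated regions of the members were not analysed here.

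RefSeq promoter windows, the 250 bases before an annotated start, were at hand for 4 of the 9 members, with 2 starts for Dysf. The windows of Cdh15 and Cav3 are shown because they held E-boxes, here in capitals. An E-box, CANNTG, is a general pattern, and MyoD and its relatives bind some forms of it. The window of the first Dysf start is shown beside them because Dysf was the called gene with a window. Cdh15 is on the plus strand at chr8:122848124-122848373, Cav3 on the plus strand at chr6:112459255-112459504 and the first Dysf start on the plus strand at chr6:84008348-84008597, all on GRCm38.p6.
Cdh15 promoter: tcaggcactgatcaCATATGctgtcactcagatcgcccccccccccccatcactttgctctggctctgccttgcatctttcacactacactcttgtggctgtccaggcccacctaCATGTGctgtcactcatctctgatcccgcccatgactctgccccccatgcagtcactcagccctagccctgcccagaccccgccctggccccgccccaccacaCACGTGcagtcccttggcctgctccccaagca
Cav3 promoter: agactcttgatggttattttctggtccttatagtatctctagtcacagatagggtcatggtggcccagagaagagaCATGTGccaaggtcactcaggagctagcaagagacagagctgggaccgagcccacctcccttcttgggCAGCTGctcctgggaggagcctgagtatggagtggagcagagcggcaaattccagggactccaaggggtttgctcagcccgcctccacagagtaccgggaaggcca
Dysf start 1 promoter: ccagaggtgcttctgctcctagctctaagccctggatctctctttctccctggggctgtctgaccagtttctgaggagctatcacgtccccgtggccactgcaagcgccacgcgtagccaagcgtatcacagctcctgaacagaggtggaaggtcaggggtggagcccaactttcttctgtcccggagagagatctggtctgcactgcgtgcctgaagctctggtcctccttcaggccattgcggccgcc

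The Cdh15 window held 3 E-boxes, whose first bases lay 236, 135 and 32 bases before the start. The Cav3 window held 2, at 174 and 106 bases before the start, and the nearer one read CAGCTG. An E-box was present in 66.2% of all 32851 windows of this length, and CAGCTG, which is one form of it, in 13.0%. Both windows of Dysf and that of Myof held none, and no window of a member held CAGGTG (17.2% of all windows), the M-CAT letters CATTCC (12.6%), the MEF2 motif (2.92%) or the CArG box (1.47%), searched on both strands. These matches describe letters in the windows and no binding was measured.

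Of the 9 genes, 8 gave a tested value, and 3 of these were called lower and 0 higher in mimic-transfected cells: Mymk, Mymx and Dysf. Over all genes tested 5.15% were called, 2.34% lower and 2.8% higher. At an unadjusted p under 0.05, 6 of the 8 members passed, against 3323 of the 13138 genes. The median difference of the 8 was -0.97, and that of all genes tested was -0.05. All 3 mimic arrays lay below both scrambled arrays for 6 members, an arrangement found in 25.8% of all genes, and above them for 0 members (19.8% of all genes). Both counts of 6 include Cav3, which was above background in 1 of 6 mimic files and 3 of 4 scrambled files. Ncam1 is counted by its brightest probe, whose difference had the opposite sign to those of its other probes.

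**Figure D1:**
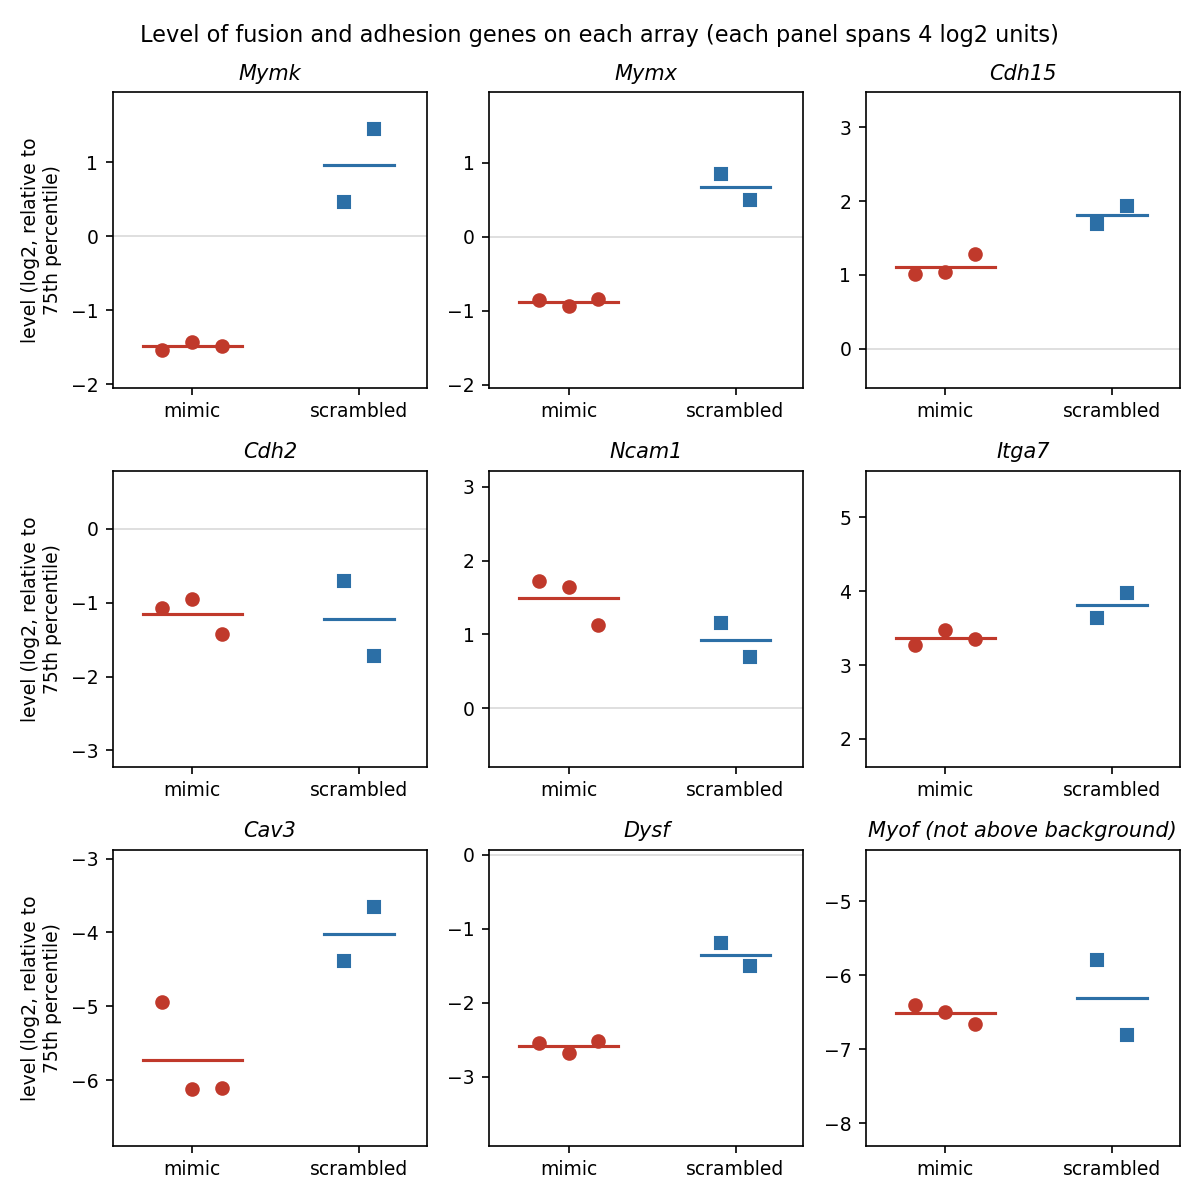
Level of each member on every array, as log2 relative to the 75th percentile of the file, with mimic arrays as red circles, scrambled arrays as blue squares and group means as lines (n = 3 mimic arrays and 2 scrambled arrays). Every panel spans the same number of log2 units. The mimic arrays lay below both scrambled arrays for Mymk, Mymx, Cdh15, Itga7, Cav3 and Dysf, and the groups overlapped for Cdh2 and Ncam1, while Myof was not above background.

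Mymk encodes myomaker, the muscle-specific membrane protein that both partners of a fusing pair carry. Its probe, A_51_P261835, lies on the minus strand of chromosome 2 (mm9 26917594 to 26917653). The level was -1.54, -1.43 and -1.48 on mimic arrays 1, 2 and 3, against 0.47 and 1.45 on scrambled arrays 1 and 2. The 3 mimic arrays lay within 0.11 of one another and far below both scrambled arrays, which differed by 0.98. Means were -1.49 ± 0.06 after the mimic (SD, n = 3) and 0.96 ± 0.69 after the scrambled sequence (SD, n = 2).

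Mymk fell by 2.44 ± 0.29 on the log2 scale after the mimic, with an adjusted p of 0.01261 from limma and a 95% interval from -3.16 to -1.73. The level was 5.44-fold lower, the largest change among the members. Its processed signal ran between 825.7 and 1131 in the mimic files (median 974.9), against 3222 to 6040 in the scrambled files (median 4380). The Mymk probe was measured above background in every file of either group. Computed within the first and the second scan, the differences were -2.46 and -2.43. RNA came from whole dishes, so fewer cells of a type and less RNA per cell cannot be told apart, here or for any gene below.

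Mymx encodes myomerger, also called myomixer, the small membrane protein that works with myomaker. Its probe, A_66_P114804, lies on the minus strand of chromosome 17 (mm9 45737921 to 45737980). The level was -0.85, -0.94 and -0.84 on the mimic arrays, against 0.86 and 0.50 on the scrambled arrays. All 3 mimic values were close together and below both scrambled values. Mymx fell by 1.56 ± 0.16 after the mimic (95% interval -1.95 to -1.16), which was 2.94-fold lower, with an adjusted p of 0.009503 from limma. The processed signal was 1049 to 1936 in mimic files and 2693 to 4909 in scrambled files.

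The scrambled arrays differed in opposite order for these genes, with array 2 the higher for Mymk and array 1 the higher for Mymx. Without scrambled array 1 the difference of Mymk was -2.93, and without scrambled array 2 it was -1.95. For Mymx the same values were -1.38 and -1.73. Leaving out a mimic array moved the differences little but ended calls. Mymk had an adjusted p of 0.07032, 0.06728 and 0.05226 without mimic array 1, 2 and 3. For Mymx the adjusted p was 0.06976, 0.05861 and 0.04876 in the same order.

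Cdh15 encodes M-cadherin, the calcium-dependent adhesion molecule that joins myoblasts to one another. Its probe, A_51_P481930, lies on the plus strand of chromosome 8 (mm9 125391031 to 125391090). The level was 1.01, 1.04 and 1.28 on the mimic arrays, against 1.69 and 1.94 on the scrambled arrays. The groups did not overlap, and the gap between the nearest arrays was wider than the spread of either group. The difference was -0.70 ± 0.16 (95% interval -1.10 to -0.30), but its adjusted p of 0.07122 did not pass the threshold. Leaving out scrambled array 1 gave -0.83, and leaving out scrambled array 2 gave -0.57. Without mimic array 1, 2 and 3 the adjusted p from limma was 0.2866, 0.228 and 0.1505. Cdh15 was not called under 15 of the 20 alternatives run.

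Cdh2 encodes N-cadherin, which myoblasts share with many other cell types. Both of its probes lie on the minus strand of chromosome 18. The brighter one, A_55_P2000133 (mm9 16747386 to 16747445), gave -1.07, -0.95 and -1.43 on the mimic arrays, against -0.71 and -1.73 on the scrambled arrays. The scrambled arrays enclosed the mimic arrays, with 1.01 between them. The difference was 0.07 ± 0.33, its 95% interval ran from -0.73 to 0.87, and the adjusted p was 0.9088. Its sign changed with the array left out, to -0.44 without scrambled array 2, against 0.58 without scrambled array 1.

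The other Cdh2 probe, A_55_P2029711 (mm9 16747559 to 16747618), gave -1.56, -1.50 and -1.40 on the mimic arrays, against -1.15 and -1.19 on the scrambled arrays. Here the groups did not overlap. The difference was -0.32 ± 0.14, with an adjusted p of 0.2186 in the fit over every probe, in which 4.58% of 16722 probes were called. The probes of Cdh2 thus gave differences of opposite sign, neither past the threshold, and averaging them gave -0.13 for the gene.

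Ncam1 encodes the neural cell adhesion molecule, a surface protein of the immunoglobulin superfamily that myoblasts carry and that is made in several isoforms by splicing. Its 3 probes on the minus strand of chromosome 9 match different numbers of curated RefSeq transcripts. The brightest, A_51_P380309 (mm9 49310320 to 49310379), matches 2. A_55_P2050602 (mm9 49323381 to 49323440) matches 1 transcript, which the brightest probe does not. A_55_P2028942, printed here because it matches all 3, lies at chr9:49351182-49351241 of mm9 and has 1 forward reading frame without a stop.
Ncam1 shared exon probe: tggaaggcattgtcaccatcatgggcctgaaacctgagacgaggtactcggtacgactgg

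The brightest probe gave 1.72, 1.64 and 1.12 on the mimic arrays, against 1.15 and 0.70 on the scrambled arrays. Mimic array 3 lay just below scrambled array 1, so the groups overlapped. The difference was 0.57 ± 0.25 (95% interval -0.04 to 1.17), with an adjusted p of 0.2161.

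The shared probe gave -3.25, -3.32 and -2.89 on the mimic arrays, against -2.62 and -1.68 on the scrambled arrays. The probe of 1 transcript gave -1.89, -1.89 and -1.80 on the mimic arrays, against -1.40 and -1.45 on the scrambled arrays. On both of these probes every mimic array lay below both scrambled arrays. The differences were -1.0 ± 0.31 for the shared probe and -0.43 ± 0.13 for the probe of 1 transcript, with adjusted p of 0.1258 and 0.1277 over every probe, neither past the threshold.

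The Ncam1 probes therefore disagreed in sign, and the mean of the 3 gave -0.29. Within an array, the brightest minus the shared probe was 4.97, 4.95 and 4.01 on the mimic arrays, against 3.77 and 2.38 on the scrambled arrays. The same quantity against the probe of 1 transcript was 3.61, 3.52 and 2.92 on the mimic arrays, against 2.55 and 2.15 on the scrambled arrays. Both within-array differences were higher on every mimic array, by 1.57 and 1.0. An exact two-sided permutation test over the 10 splits of the 5 arrays gave p = 0.2 for each, where the smallest p of this design is 0.1.

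Probe base composition moved with these values. The shared probe is 55% G and C, the brightest 36.67% and the probe of 1 transcript 41.67%, against a median of 41.67% over the tested genes. Genes whose probe was at or below 35% had a median difference of 0.11 and those above 53.33% one of -0.22. Scrambled array 2 minus scrambled array 1 had medians of -0.21 and 0.25 for the same genes. A correction for probe base composition, chosen after seeing the data, gave a gene-level Ncam1 difference of 0.52 (adjusted p = 0.2178, limma). How much of the disagreement between the Ncam1 probes goes with base composition was not tested.

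**Figure D2:**
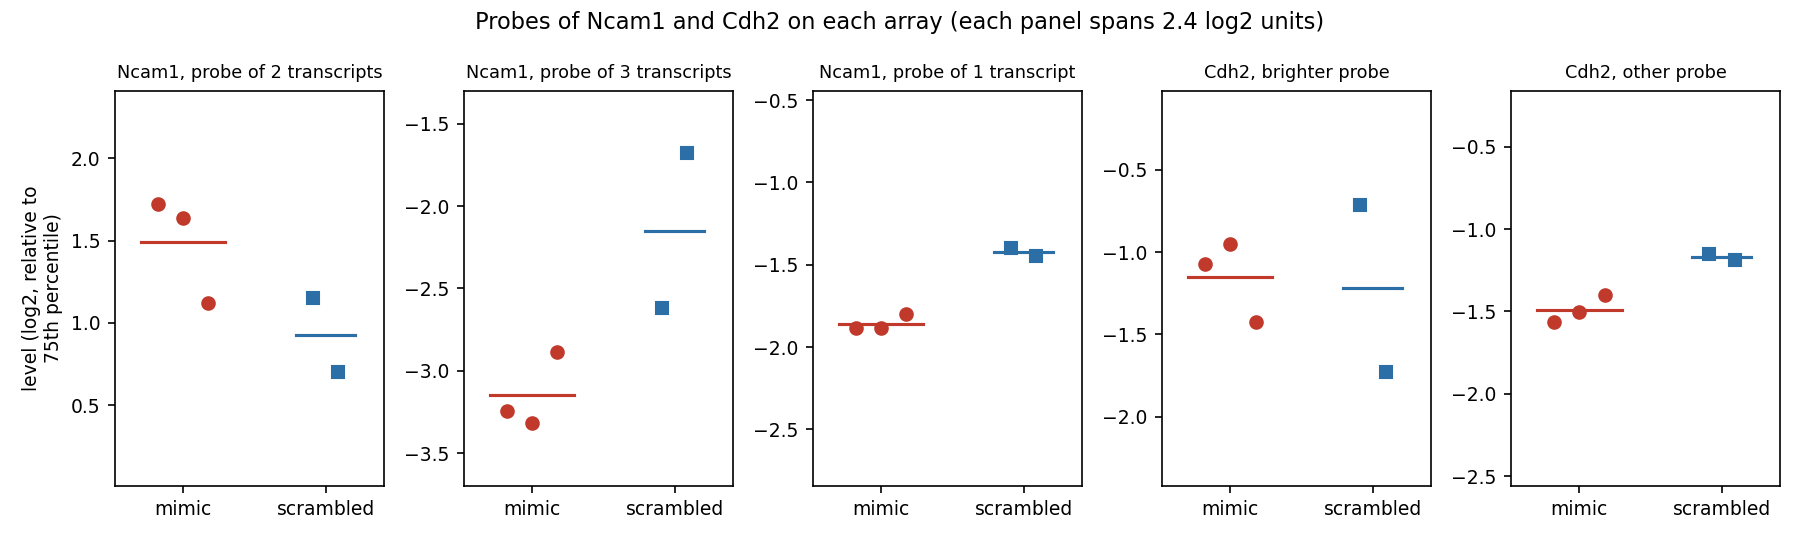
Level of each of the 3 Ncam1 probes and the 2 Cdh2 probes on every array, as log2 relative to the 75th percentile of the file, with mimic arrays as red circles, scrambled arrays as blue squares and group means as lines. Panels span the same number of log2 units. The brightest Ncam1 probe averaged higher on the mimic arrays (0.57), whereas the others averaged lower (-1.0 and -0.43).

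Itga7 encodes the alpha-7 integrin, which pairs with the beta-1 chain as a laminin receptor of muscle. Its probe, A_55_P2040011, lies on the plus strand of chromosome 10 (mm9 128395274 to 128395333). The level was 3.27, 3.48 and 3.35 on the mimic arrays, against 3.64 and 3.98 on the scrambled arrays. The mimic arrays lay below both scrambled arrays by a small margin. The difference was -0.44 ± 0.17 (95% interval -0.85 to -0.03), and the adjusted p of 0.1726 did not pass. Without scrambled array 1 the difference was -0.61, and without scrambled array 2 it was -0.27, with 1 scrambled array left in either fit.

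Itga7 carried a processed signal of 23980 to 33720 in mimic files and 26920 to 35840 in scrambled files. The probe was among the bright ones in every file, and the size of its difference depended on scaling. Quantile normalization gave -0.22 and the deposited value table -0.28.

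Cav3 encodes caveolin-3, the caveolin of muscle membranes. Its probe, A_51_P255304, lies on the plus strand of chromosome 6 (mm9 112422739 to 112422798). The level was -4.94, -6.12 and -6.10 on the mimic arrays, against -4.39 and -3.65 on the scrambled arrays. Every mimic array lay below both scrambled arrays. Cav3 cleared the background in 1 of 6 mimic files and 3 of 4 scrambled files, so it entered the test mainly through the scrambled group. Its processed signal was 20.04 to 124.9 in mimic files and 114.4 to 213.5 in scrambled files, and the scans of 1 array differed by up to 1.22 on the log2 scale.

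The difference of Cav3 was -1.70 ± 0.43 (95% interval -2.75 to -0.65), with an adjusted p of 0.08468. Its size depended on the treatment of dim signal, at -1.36 and -2.04 in the first and second scan and -0.69 after normexp background correction. Cav3 was not called under 18 of the 19 alternatives run. Its difference was below 0 under each of them, but all reuse the same arrays.

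Dysf encodes dysferlin, the ferlin that brings vesicles to damaged muscle membrane. Its probe, A_55_P1964183, lies on the plus strand of chromosome 6 (mm9 84160977 to 84161036) and matches 2 curated transcripts. The level was -2.55, -2.67 and -2.52 on the mimic arrays, against -1.19 and -1.50 on the scrambled arrays. The mimic arrays were close together, more than 1 unit below the nearer scrambled array. Dysf fell by 1.23 ± 0.16 after the mimic (95% interval -1.62 to -0.84), which was 2.35-fold lower, with an adjusted p of 0.01627 from limma. The processed signal was 324.1 to 554.8 in mimic files and 672 to 1156 in scrambled files, and the scans gave -1.23 and -1.24.

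The Dysf call was lost without any 1 mimic array, with adjusted p of 0.1004, 0.08721 and 0.0663, while the difference stayed between -1.26 and -1.18. Without scrambled array 1 the difference was -1.08, and without scrambled array 2 it was -1.39. Either fit leaves 1 scrambled array, so only the size of the difference is given.

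Myof encodes myoferlin, a ferlin of myoblast membranes whose loss impairs fusion in mice. Its probe, A_55_P2116365, lies on the minus strand of chromosome 19 (mm9 38024061 to 38024120). It was well above background in 0 of the 10 files, with a processed signal of 24.27 to 36.11 in mimic files and 13.68 to 49.7 in scrambled files. Myof was therefore not tested, and this probe gave no measure of its level in either group.

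**Figure D3:**
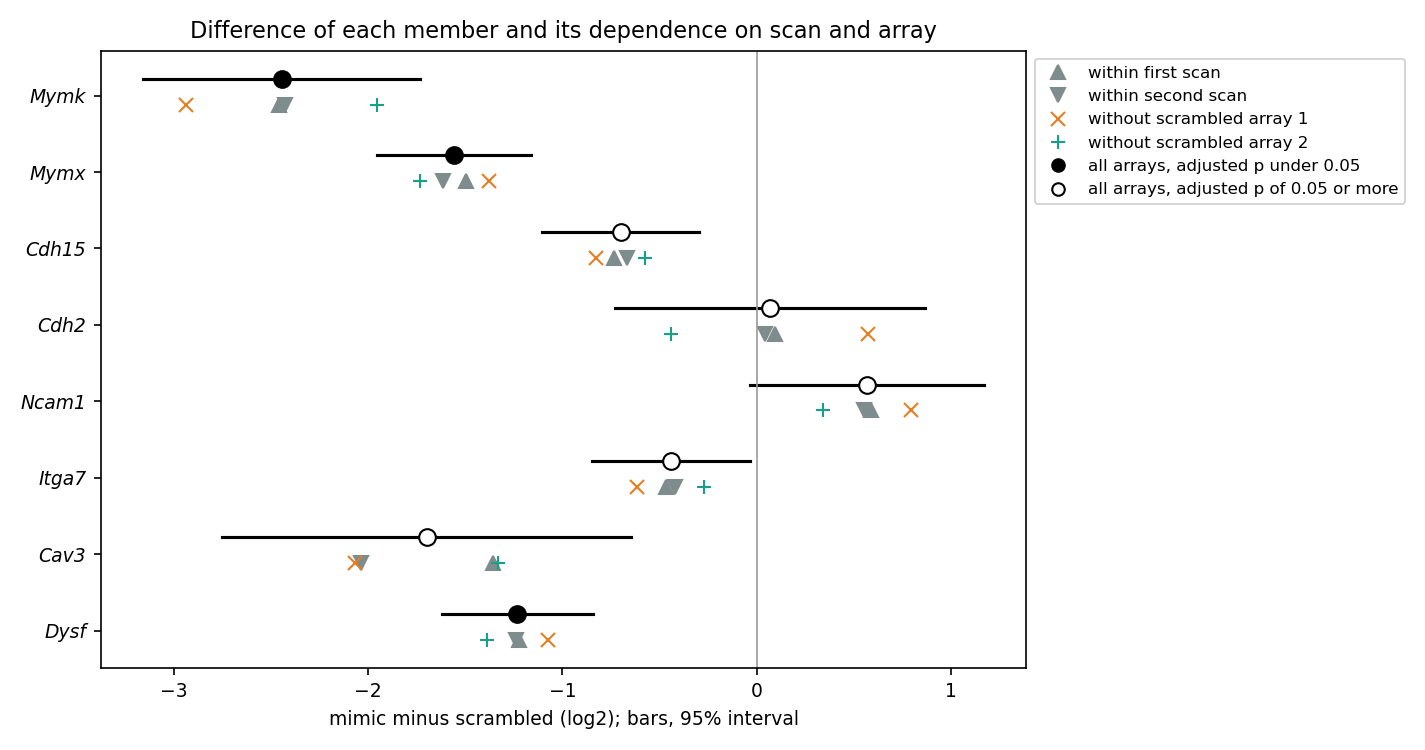
Mimic minus scrambled difference of each tested member, in log2 units, with its 95% interval from limma (filled circles, adjusted p under 0.05; open circles, 0.05 or more). Marks below each circle show the difference within either scan and without either scrambled array. Mymk, Mymx and Dysf stayed below 0 in every case shown, at -1.95, -1.38 and -1.08 for the values nearest 0, and Cdh2 changed sign.

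Genes that work beside the members were described by 6 wider lists. The counts of these lists stand beside 2.34% called lower and 2.8% called higher over all genes tested. The first held 34 genes of the fusion machinery outside the myomaker and myomerger pair: receptors, adaptors and the actin regulators that push membranes together. Of 25 tested, 1 was lower, 1 was higher and 23 were not called, with a median of 0.13. The called ones were both junctional adhesion molecules, surface proteins whose zebrafish forms are needed for myoblast fusion. Jam2 gave 0.47, 0.42 and 0.46 on the mimic arrays, against -0.36 and -0.26 on the scrambled arrays, and rose by 0.76 ± 0.13 (adjusted p = 0.03588, limma). Jam3 gave -2.58, -2.69 and -2.51 on the mimic arrays, against -1.80 and -1.85 on the scrambled arrays, and fell by 0.77 ± 0.14 (adjusted p = 0.03801, limma).

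Among 14 cadherins, catenins and nectins other than the members, 9 were tested and 0 were called by limma, with 1 at an unadjusted p under 0.05 and a median of -0.08. The gene with the smallest p was Nectin3, an immunoglobulin-like adhesion molecule, at -3.04, -2.92 and -2.83 on the mimic arrays, against -3.88 and -3.25 on the scrambled arrays. Its difference was 0.63 ± 0.22 with an adjusted p of 0.1504. It rested on the scrambled arrays, at 0.31 without array 1 and 0.95 without array 2. The mean of its kept probes gave 1.04 (adjusted p = 0.02007), and normexp gave 0.39 (adjusted p = 0.2482).

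Of 28 integrins and proteins of the adhesion complex, 23 were tested, with 1 lower, 2 higher and a median of -0.09. Itgb4, the integrin chain of hemidesmosomes in epithelia, cleared the background in every one of the 6 mimic files and in 0 of 4 scrambled files. Its level was -1.84, -1.88 and -2.04 on the mimic arrays. Itgb4 thus passed the filter through the mimic group alone. Its adjusted p of 0.003067 from limma belongs to a fitted difference of 4.19, which used scrambled values that were not above background. Set against the lowest signal well above background on the scrambled arrays, Itgb4 was at least 8.09-fold higher after the mimic. After normexp, which here added an offset of 50 to every signal, the fitted log2 difference was 2.22, less than that bound.

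Itga10, a collagen-binding integrin chain, gave -2.14, -2.23 and -2.28 on the mimic arrays, against -4.22 and -4.50 on the scrambled arrays, and rose by 2.15 ± 0.15 (adjusted p = 0.004463, limma). It cleared the background in 6 of 6 mimic files and 3 of 4 scrambled files. Itgb1bp2, which encodes the muscle protein melusin that binds the beta-1 integrin tail, gave -5.29, -5.27 and -5.10 on the mimic arrays, against -4.38 and -3.89 on the scrambled arrays. It was called lower, with a fitted difference of -1.08 ± 0.19 (adjusted p = 0.03743, limma). Because it cleared the background in 1 of 6 mimic files and 4 of 4 scrambled files, it passed the filter through the scrambled group and the size of its difference was poorly measured. Itgb1, the partner chain of Itga7, was not called, with levels of -0.83, -0.80 and -0.91 on the mimic arrays, against -0.76 and 0.16 on the scrambled arrays; it is named after its value was seen. Its difference was -0.55 ± 0.28 (adjusted p = 0.2672, limma), of which scrambled array 2 carried most. Without that array the difference was -0.09, and without scrambled array 1 it was -1.01, with 1 scrambled array left in either fit.

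Of 22 genes of other ferlins, annexins, calpains and membrane repair, 18 were tested, with 1 lower, 0 higher and a median of 0.14. The gene called was Trim72, which encodes the muscle repair protein MG53, a known partner of dysferlin and caveolin-3. Trim72 ranged between -5.85 and -4.83 on the mimic arrays, against -3.32 and -3.49 on the scrambled arrays. It was called lower, with a fitted difference of -1.82 ± 0.32 (adjusted p = 0.03743, limma), against -1.01 and no call after normexp (adjusted p = 0.05892). It cleared the background in 2 of 6 mimic files and 4 of 4 scrambled files, so the size of its difference was likewise poorly measured.

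All 10 caveola genes other than Cav3 were tested, with 0 lower, 1 higher and a median of 0.14. The one called was Cav2, a caveolin of many cell types, at -2.58, -2.76 and -2.62 on the mimic arrays, against -4.07 and -3.96 on the scrambled arrays. Cav2 rose by 1.36 ± 0.14 (adjusted p = 0.009503, limma), while the difference of Cav3 was of the opposite sign.

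Of 12 relatives and modifiers of the neural cell adhesion molecule, 4 were tested, with 1 lower, 0 higher and a median of -0.63. Fgfr4, a fibroblast growth factor receptor, gave -4.54, -4.56 and -4.65 on the mimic arrays, against -3.91 and -3.77 on the scrambled arrays. Fgfr4 fell by 0.74 ± 0.14 (adjusted p = 0.04044, limma) and cleared the background in 4 of 6 mimic files and 4 of 4 scrambled files. The sialyltransferases St8sia2 and St8sia4, which modify this adhesion molecule, were among the 8 genes without a tested value.

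The calls in the wider lists differed in how far they rested on single arrays and settings. Itga10 was called under 18 of 19 alternatives, with no filter on dim probes the exception. The fitted difference of Itgb4 ran between 2.22 and 4.54 over the 19 alternatives that gave it a value. All of them used scrambled values that were not above background, so they are no further support for its call. Jam2, Jam3, Itgb1bp2, Cav2 and Fgfr4 lost the call without any 1 mimic array, and Trim72 without mimic array 1 or 2. Without scrambled array 2 the calls of Jam3, Itgb1bp2, Trim72 and Fgfr4 were lost as well, at adjusted p of 0.05723, 0.05629, 0.1051 and 0.06374. Fgfr4 lost its call under 12 of 19 alternatives and Itgb1bp2 under 9 of 19. After normexp, Fgfr4 gave -0.40 and Itgb1bp2 -0.63, neither called, and Cav2 gave 0.88 and was called. None of these 8 genes changed sign under any alternative.

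**Figure D4:**
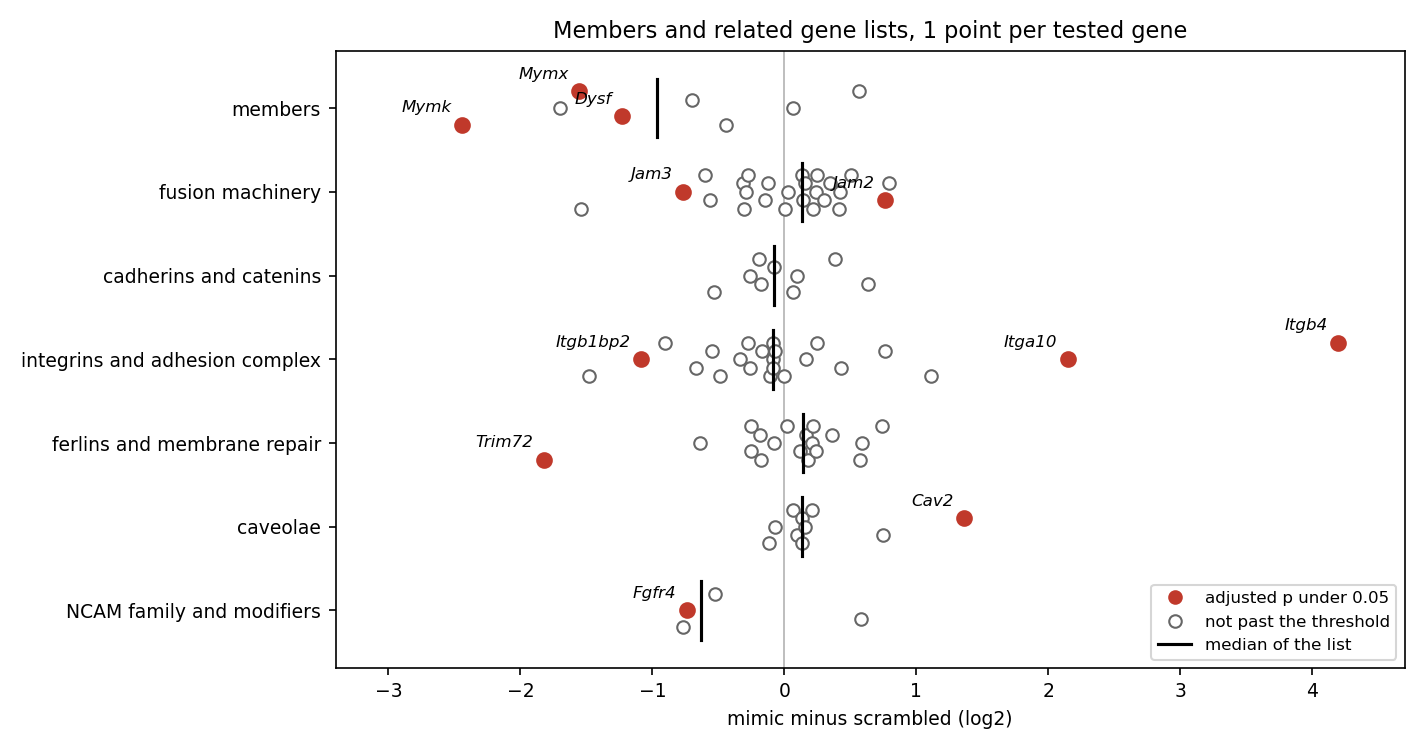
Mimic minus scrambled difference, in log2 units, of each tested gene of the members and of the 6 wider lists, with 1 circle per gene, filled red where the adjusted p was under 0.05, and the median of each list as a black line. Itgb4 is drawn at its fitted value, which is no bound because its scrambled arrays were not above background. The median of the members was -0.97, and that of the lists between -0.63 and 0.14.

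Markers of cell state moved with these genes. Over all genes tested, 2.34% were called lower and 2.8% higher. Of 10 markers of differentiating muscle, 8 were tested, 6 were lower and 0 higher. Their summed linear level was 9.341 to 11.63 on the mimic arrays, against 30.67 and 30.93 on the scrambled arrays. Myog, the transcription factor that starts terminal differentiation, fell by 2.10 ± 0.21 (adjusted p = 0.009183, limma), a call that was lost without mimic array 1 (0.06156) or 2 (0.05378). Of 8 proliferation markers, 5 were higher and 0 lower, with sums of 5.652, 5.679 and 5.797 on the mimic arrays, against 3.235 and 3.46 on the scrambled arrays. The part of either shift in the results for the members was not tested.

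Of 8 myoblast markers, which include Cdh15 and Itga7, 6 were tested and 0 were called by limma. At an unadjusted p under 0.05, 5 of the 6 passed, against 3323 of the 13138 genes. The sums of the tested markers were 21.13, 23.1 and 22.86 on the mimic arrays, against 27.86 and 35.9 on the scrambled arrays. Cdh15 and Itga7 are part of these sums, which are therefore no measure separate from the members. Myf5 was above background in 1 of the 10 files and Pax7, a marker of satellite cells, in 0 files. Myod1 gave -0.12, -0.06 and 0.02 on the mimic arrays, against 0.68 and 1.74 on the scrambled arrays, a difference of -1.26 ± 0.31 that was not called (adjusted p = 0.08022, limma) and ran between -1.79 without scrambled array 1 (0.01136, called) and -0.73 without scrambled array 2 (0.05949).

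Markers of other cell types were mostly near background. No file showed Thy1, Dpt and Tcf21 of fibroblasts, Myh11 and Cnn1 of smooth muscle, Adipoq, Fabp4, Plin1 and Cidec of adipocytes, Sp7 and Ibsp of osteoblasts, Pecam1, Cdh5, Tek and Emcn of endothelium, or Adgre1 and Ptprc of macrophages above background. Of the 6 fibroblast markers 3 were tested, with Pdgfra lower although it cleared the background in 1 of 6 mimic files and 3 of 4 scrambled files. Col1a1 and Lum had differences above 0, at 0.55 and 0.19, and were not called. The fibroblast sum was 3.364 to 3.486 on the mimic arrays, against 1.917 and 2.937 on the scrambled arrays. Of the 5 smooth muscle markers 3 were tested, with Tagln lower, and the sum was 8.176 to 9.15 on the mimic arrays, against 11.61 and 13.97 on the scrambled arrays. The 1 tested osteoblast marker, Bglap2, was higher, at a summed level of 0.3752 to 0.4269 on the mimic arrays, against 0.06483 and 0.0709 on the scrambled arrays. None of the tested adipocyte (1 of 5), endothelial (1 of 5) and macrophage markers (3 of 5) was called by limma, with 1, 0 and 1 at an unadjusted p under 0.05. Their sums were 0.3639 to 0.3906, 0.1678 to 0.2157 and 0.9399 to 1.124 on the mimic arrays, against 0.5117 to 0.5793, 0.154 to 0.1762 and 1.072 to 1.195 on the scrambled arrays.

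The genes whose profile over the 5 arrays lay nearest to each member were ranked by the root mean square difference of centred log2 levels, as a description with no test. Nearest to Mymk were Lbp (0.11), Tmod1 (0.14), which encodes the thin filament cap tropomodulin, and Ucp3 (0.19), a mitochondrial carrier of muscle. Ucp3 gave -6.49, -6.35 and -5.95 on the mimic arrays, levels as low as those of Myof, which was not above background. Lbp gave -4.68, -4.83 and -4.73 on the mimic arrays, against -2.61 and -1.73 on the scrambled arrays, with scrambled array 2 the higher, as for Mymk. Near to Mymx were Inpp5j (0.08) and Patj (0.09), and nearest to Dysf were the chemokine Ccl2 (0.06), Prickle1 (0.08) and the chemokine Cxcl5 (0.08). The genes named for Mymk and for Mymx were different ones.

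For the members not called, near profiles were Plscr1 and Eif2b1 for Cdh15 (0.02 to 0.03), and Tmem199, H19 and Rdh10 for Itga7 (0.01 to 0.03). They were Sirt1, Tent4b and Trip12 for Cdh2 (0.05 each), and Usp3, Srp54a and Bbs12 for Ncam1 (0.06 each). Cav3 had no near profile, with Coro6 at 0.23, Card10 at 0.34 and Jrk at 0.34. The 5 arrays share 1 slide, and the ranking was over 13138 profiles.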

How the data were processed

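The intensity used is linear and was deposited in scanner output; per the file headers, Agilent Feature Extraction 12.0.0.7 subtracted the background and detrended it, and replaced small values by a surrogate. Version 10.7.3.1 stands in the submitters' processing notes, and the sources used here do not settle which was run. The authors' value table, whose deposited intensity was linear, uncentred and quantile-normalised as its values show, served as an alternative. Probe positions on mm9 are those of the files.

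The log2 of the deposited signal was taken without controls and outlier spots (157 to 270 in a file), and repeated spots were averaged. Each file was centred on its 75th percentile among 13029 probes that cleared the background in all 10 files. Probes well above background in at least 4 files were kept (16786 of 55681), a filter that a probe can pass through 1 group alone. A gene was its brightest kept probe, and 50 of 13188 were left out for want of a value, leaving 13138. Probes were named through the RefSeq accession (28026), symbol (3418) or older symbol (295), and otherwise kept the file's name (23942).

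Deviations from the group means correlated at 0.651 to 0.866 between files of a position. Files of a position were averaged and groups compared by a moderated linear model (limma 3.58.1, R 4.3.3), which had 3 residual degrees of freedom and 2.93 from the prior. Same-numbered files of the groups correlated at 0.382, -0.0356, -0.351 and -0.103, so numbers did not pair the samples. The fit was tested on simulated data, where it called 106 of 200 changed genes and 4 unchanged ones. A gene that was not called can therefore have changed. At-least folds compare the mean of the bright group with, per array of the other, the higher of its lowest signal well above background and the probe's own. Members, lists and markers were chosen with earlier results of these data known. Named were all members, up to 5 called genes of each list or its gene of smallest p, and the 3 nearest profiles, of which some are not reported here. Alternatives were 10 separate files, either scan, a replicate or scan block, other filters, scalings, background correction and probe rules, each array left out and, chosen after seeing the data, a correction for probe base composition. Promoter and microRNA sequences are from RefSeq, GRCm38.p6.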

Additional observations from a re-analysis of the deposited data

How the results depend on the processing

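The 676 calls over all genes (308 lower and 368 higher) changed with the filter on dim probes, the treatment of scans and the arrays included. Taking the 10 files as separate arrays gave 4512, with 7 members and 33 genes of the wider lists called, against 3 and 8. With the replicate block, which the labels' numbers do not bear out as a pairing, the counts were 1950, 4 and 16, and Cdh15 was called at -0.72. With scan as block and position as random block they were 1459, 4 and 14, and Cdh15 was called at -0.70. With no filter on dim probes they were 17, 0 and 1, and Mymk (-2.44), Mymx (-1.56) and Dysf (-1.23) had adjusted p of 0.09891, 0.1161 and 0.1797. The second scan alone gave 5 genes of the lists. Trend and robust moderation called Cdh15 at -0.70. The 10 separate files also called Cdh15 (-0.70), Cav3 (-1.70), Itga7 (-0.44) and Ncam1 (0.57). Averaging kept probes reversed Cdh2 to -0.13 and Ncam1 to -0.29.

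Leaving out 1 array gave 47 (mimic array 1), 79 (mimic array 2), 138 (mimic array 3), 4350 (scrambled array 1) and 570 (scrambled array 2) calls. Members called then ran between 0 and 5 and genes of the lists between 2 and 35. The differences ran between -2.93 and -1.95 for Mymk, -1.73 and -1.38 for Mymx, -1.39 and -1.08 for Dysf, -0.83 and -0.57 for Cdh15, -0.61 and -0.27 for Itga7, -2.09 and -1.33 for Cav3, 0.34 and 0.79 for Ncam1, and -0.44 and 0.58 for Cdh2, which was also -0.03 without mimic array 2. The lone scrambled array was then assumed to vary like the mimic arrays.

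Scaling on the percentile over all probes moved the median of all genes to 0.11, against -0.05, and the split of calls to 234 lower and 503 higher. The members called numbered 3 there. Mymk was then -2.29, Mymx -1.40 and Dysf -1.07. The correction for probe base composition gave 788 calls and 3 members, with Mymk at -2.32 and Cdh15 at -0.49. The causes of these changes were not tested. With 3 arrays against 2, array number limits the precision, and Myof, Cav3, Itgb4, Itgb1bp2, Pdgfra and Trim72 were at or near background in 1 group or both.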
